A study of Mus musculus with 8 samples.

Results

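The natural killer (NK) gene complex of mouse chromosome 6 is a cluster of C-type lectin-like receptor genes, and 8 of its genes, Clec2d, Clec2g, Clec2i, Klrb1c, Klrb1f, Klrd1, Klrk1 and Klri2, were followed in double-positive (CD4+ CD8+) thymocytes from 2 inbred mouse strains, C57BL/6J and NOD/ShiLtJ (NOD). They were taken by name from the 53465 genes of the count tables, and all 8 were present there. NOD is a strain that develops autoimmune diabetes, and C57BL/6J is the strain of the reference genome. The labels name no transgene, allele or treatment for either strain, and no age or sex. RNA came from live thymocytes sorted for CD4 and CD8a, with 4 libraries per strain that carry 2 B numbers and 2 T numbers whose meaning is not spelled out. Libraries sharing strain and B number were added together, which gave 2 summed samples per strain. Nothing says that B numbers are separate animals, so p-values measure only how far these samples spread, and that spread may be technical.

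Lectins of the complex work as receptors and as their ligands. Klr proteins sit on NK cells and some T cells, where they carry activating or inhibitory signals, whereas Clec2 proteins are found on many cells and are read by receptors of the Klrb1 (NKR-P1) family. Both partners of such a pair are encoded side by side in the same cluster. Double-positive thymocytes are the stage at which T cell precursors are selected, and they are not a usual source of Klr receptors.

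The 4 C57BL/6J libraries held 8526640 to 15701948 reads in genes and the 4 NOD libraries 23532823 to 30370599. Levels are given as CPM, counts for every 1000000 reads in genes after TMM scaling. Over a strain, 0 counts allowed up to 0.0625 CPM for C57BL/6J and 0.0292 CPM for NOD, at a limit of 3 counts, and intervals of counts cover counting error only. Defining genes of the sorted stage were abundant, with Cd4 at 1250 and 1292 CPM and Cd8a at 1562 and 1659 CPM in C57BL/6J and NOD. None of the 10 double-positive markers passed the test (smallest adjusted p 0.0911). Their summed level did not overlap, at 17580 to 21111 CPM over the C57BL/6J libraries and 13711 to 16270 CPM over the NOD ones. Rag1 (8991 and 5896 CPM), Rag2 (359 and 286 CPM), Dntt (1999 and 1398 CPM) and Cd8b1 (1728 and 1075 CPM) were below C57BL/6J in every NOD library, and Ptcra (28.0 and 48.2 CPM) was above. Of all tested genes, 8.85% lay below in this way and 8.20% above, and no such share was computed for the sum. The part of these marker differences in the lectin results was not tested.

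Of the 8 lectins, Clec2d and Clec2i made up nearly all the RNA. They gave 4033 of the 4073 reads of the 8 genes in C57BL/6J (99.0%) and 12315 of 12538 in NOD (98.2%), while the other 6 genes together had 40 and 223 reads. Only 4 genes passed the filter on low counts and were tested: Clec2d, Clec2i, Klrb1c and Klrk1, of which Klrb1c and Klrk1 passed it through their NOD counts. One gene was higher in NOD (Clec2d) and 1 was lower (Clec2i) at an adjusted p under 0.05 in the quasi-likelihood test of edgeR. Among all 17291 tested genes 3.68% were called, 1.91% as higher and 1.78% as lower in NOD; since the 8 genes were named with earlier results of these data known, their count is not evidence that the family stands apart.

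Clec2d encodes Clr-b (also called OCIL), a surface lectin that is bound by the inhibitory receptor NKR-P1B on NK cells. The gene (ENSMUSG00000030157) lies on the plus strand of chromosome 6, from 129180615 to 129186534 in GRCm38. Its level was 49.5, 46.2, 52.2 and 47.0 CPM in the 4 C57BL/6J libraries and 101, 121, 85.2 and 98.9 CPM in the 4 NOD libraries. Every NOD library lay above every C57BL/6J library, as did 8.20% of all tested genes. Means of the summed samples were 48.9 ± 2.05 CPM for C57BL/6J and 101 ± 13.9 CPM for NOD (± SD, n = 2 samples per strain here and below). Clec2d thus rose 2.08-fold in NOD, a log2 fold change of 1.05 ± 0.17 (standard error, SE) with an adjusted p of 0.0107. Within B number 1 the log2 difference was 1.23 and within B number 2 it was 0.87. Leaving out C57BL/6J sample 1 gave 1.01 (adjusted p = 0.121), and leaving out C57BL/6J sample 2 gave 1.09 (adjusted p = 0.0614).

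Clec2i encodes Clr-g, the lectin ligand of the receptor NKR-P1F. The gene (ENSMUSG00000030365, plus strand, chromosome 6, 128887588 to 128898167) starts 293.0 kb before Clec2d. C57BL/6J libraries stood at 34.1, 34.2, 36.8 and 42.1 CPM, NOD libraries at 16.7, 16.7, 18.4 and 16.7 CPM. All NOD libraries lay below all C57BL/6J libraries, a separation seen in this direction for 8.85% of tested genes. The level fell from 36.2 ± 3.51 to 17.2 ± 0.560 CPM, a log2 fold change of -1.07 ± 0.20 (adjusted p = 0.0192), so that C57BL/6J stood 2.10-fold above NOD. Within B number 1 the summed samples stood at 33.7 and 16.8 CPM, and within B number 2 at 38.6 and 17.6 CPM. Leaving out C57BL/6J sample 1 gave -1.17 (adjusted p = 0.0965), and leaving out C57BL/6J sample 2 gave -0.98 (adjusted p = 0.154).

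The 2 Clec2 genes thus moved in opposite directions, which can be read within each library without any scaling. For each Clec2i read, a C57BL/6J library held 1.12 to 1.45 Clec2d reads and a NOD library 4.64 to 7.23. The ranges did not overlap. In both strains Clec2d was the more abundant, at 40.3 ± 1.69 CPM per kb of exon against 11.6 ± 1.13 for Clec2i in C57BL/6J, and 83.6 ± 11.4 against 5.53 ± 0.182 CPM per kb in NOD.

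**Figure D1:**
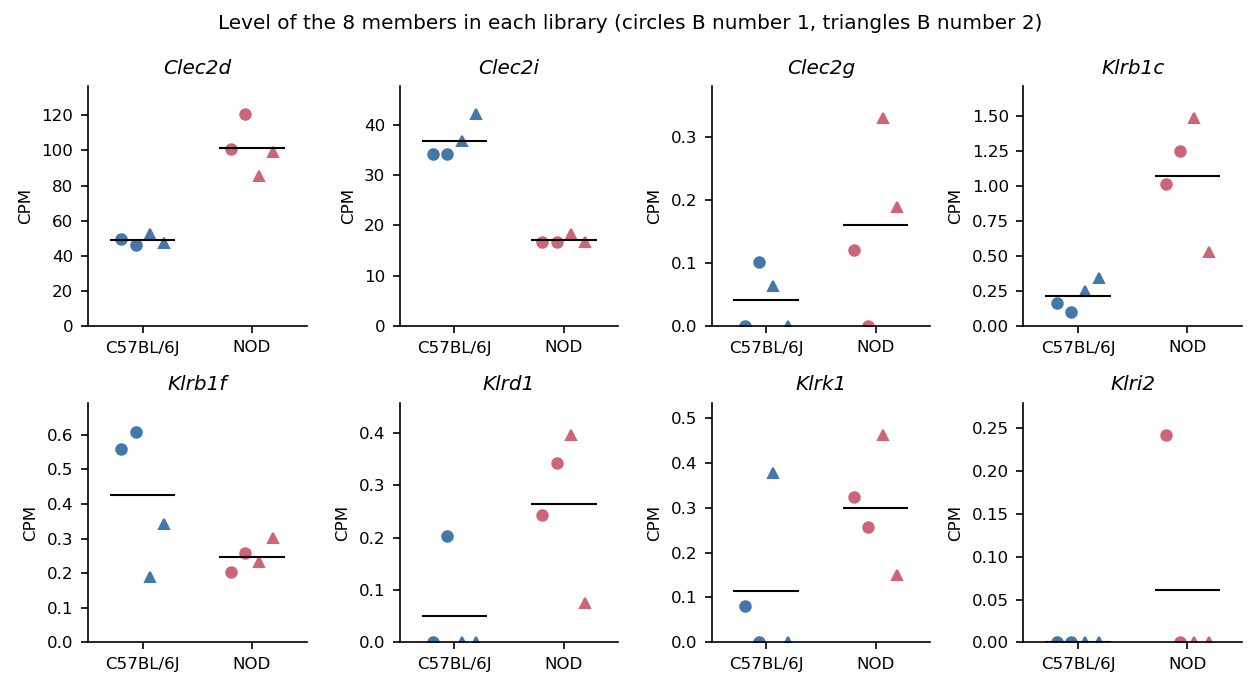
Level of each of the 8 genes in CPM (vertical axis, starting at 0, with its own scale per gene) in the C57BL/6J (blue) and NOD (red) libraries; circles are B number 1, triangles B number 2, and the line is the mean of 4 libraries. Clec2d lay at 85.2 CPM or more in NOD and at 52.2 CPM or less in C57BL/6J, Clec2i showed the opposite order, and the remaining genes stayed below 1.5 CPM.

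The sequence just before the start of each of these genes is shown because they are neighbours of 1 family that differed between the strains in opposite directions. RefSeq (GRCm38.p6) gave a promoter for 6 of the 8 genes, and the 250 bases before the start are printed 5′ to 3′ on the plus strand, for Clec2d from chr6:129180365-129180614 and for Clec2i from chr6:128887337-128887586. Clec2i has a second RefSeq start that begins 3 bases further on and is not printed. Capitals mark matches, on either strand, to any of 6 short motifs of factors active in thymocytes. The RUNX motif searched was TGTGGT, the ETS motif CGGAAG, the E-box of E proteins CAGNTG, the GATA motif AGATAA, the TCF motif CTTTGA and the motif of ROR and other nuclear receptors AGGTCA.
Clec2d: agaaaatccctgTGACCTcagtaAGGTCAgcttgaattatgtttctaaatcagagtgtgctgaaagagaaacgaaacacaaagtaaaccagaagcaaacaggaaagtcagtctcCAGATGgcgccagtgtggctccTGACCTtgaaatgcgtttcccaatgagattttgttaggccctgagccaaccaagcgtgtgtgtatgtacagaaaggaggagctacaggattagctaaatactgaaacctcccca
Clec2i: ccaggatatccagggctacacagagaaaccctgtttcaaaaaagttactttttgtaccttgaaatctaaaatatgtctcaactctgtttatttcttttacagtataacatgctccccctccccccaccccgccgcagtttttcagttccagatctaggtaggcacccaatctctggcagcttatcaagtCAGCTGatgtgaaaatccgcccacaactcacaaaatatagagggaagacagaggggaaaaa
The Clec2d window held AGGTCA or its reverse complement at positions -238, -227 and -114 from the start and 1 E-box at -136. The Clec2i window held 1 E-box at -61 and none of the other 5 motifs. Of 32851 RefSeq windows of this length, 14.0% held AGGTCA at least 1 time and 0.131% at least 3 times, 44.8% held CAGNTG, 14.0% TGTGGT, 13.6% CGGAAG, 9.99% AGATAA and 13.8% CTTTGA. These are letters of the C57BL/6J reference; the NOD alleles were not analysed here, and a match is not a bound site.

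Clec2g, a further Clec2 paralogue (OCIL-related), was close to the detection limit. It had 0, 1, 1 and 0 reads in the C57BL/6J libraries and 3, 0, 10 and 5 in the NOD libraries. The 2 and 18 reads per strain gave a depth-scaled NOD to C57BL/6J ratio of 4.20 (95% counting interval 1.01 to 37.3), and the libraries overlapped. It did not enter the test.

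Among the Klrb1 receptors, Klrb1c encodes NKR-P1C, the activating receptor known as the NK1.1 antigen of C57BL/6 mice, which antibodies to NK1.1 do not detect on NOD cells. Its reads (ENSMUSG00000030325, minus strand, chromosome 6, 128778485 to 128789215) numbered 25, 29, 45 and 14 in the NOD libraries and 2, 1, 4 and 3 in the C57BL/6J libraries. In CPM this was 1.01, 1.24, 1.49 and 0.529 in NOD and 0.160, 0.102, 0.252 and 0.342 in C57BL/6J, with no overlap. Sample means were 0.208 ± 0.107 and 1.09 ± 0.0643 CPM, a log2 fold change of 2.35 ± 0.61 that missed the threshold (adjusted p = 0.0796). Of 13 alternative fits 2 passed, at 0.0232 with no filter on low counts and at 0.0144 with the 8 libraries as separate samples, which treats T numbers as independent. The other 11 did not pass, with adjusted p from 0.0523 to 0.495, among them DESeq2 at 0.170. Leaving out C57BL/6J sample 1 gave a log2 fold change of 1.92 (adjusted p = 0.495), and leaving out C57BL/6J sample 2 gave 3.00 (adjusted p = 0.169). The 10 and 113 reads gave a ratio of 5.28 (counting interval 2.77 to 11.3).

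Klrb1f encodes NKR-P1F, the receptor of the Clec2i product, and it was not tested because of its low counts. It had 7, 6, 3 and 3 reads in C57BL/6J and 5, 6, 7 and 8 in NOD, or 0.189 to 0.610 CPM against 0.202 to 0.302 CPM, with overlap. The ratio of 19 and 26 reads was 0.639 with an interval of 0.340 to 1.22, which includes 1.

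The CD94 and NKG2D receptors were as scarce. Klrd1, which encodes CD94, the partner of NKG2 chains in receptors for the class I molecule Qa-1, had 0, 2, 0 and 0 reads in C57BL/6J and 6, 8, 12 and 2 in NOD. The 2 and 28 reads gave a ratio of 6.54 (interval 1.65 to 56.6), although 1 C57BL/6J library, at 0.203 CPM, stood above the lowest NOD library, at 0.0755 CPM. Klrk1, which encodes the activating receptor NKG2D, had 1, 0, 6 and 0 reads in C57BL/6J and 8, 6, 14 and 4 in NOD, and the strains overlapped. Its log2 fold change was 1.05 ± 0.82 (adjusted p = 0.725), and leaving out C57BL/6J sample 1 gave 0.32 and leaving out sample 2 of that strain 2.70, so these reads do not fix its size. Klri2, which encodes a receptor that pairs with the Klre1 product, had 6 reads in 1 NOD library and 0 in all others, so no fold can be given.

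Ordered by CPM per kb of exon, the C57BL/6J levels ran from Clec2d and Clec2i to Klrb1f (0.202), Klrb1c (0.0702), Klrd1 (0.0345), Klrk1 (0.0200), Clec2g (0.0149) and Klri2 (0 reads). In NOD the order after Clec2d and Clec2i was Klrb1c (0.367), Klrd1 (0.211), Klrb1f (0.122), Clec2g (0.0574), Klrk1 (0.0425) and Klri2 (0.0160). In C57BL/6J the summed samples overlapped between Klrb1c and Klrd1, Klrd1 and Klrk1, and Klrk1 and Clec2g, and in NOD between Clec2g and Klrk1, so these neighbours cannot be ranked. With at most 113 reads behind any of these 6 genes in a strain, the order below Clec2i rests on few reads.

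Reads of these relatives can be hard to assign. Of all 37-base windows (the shorter of the 2 read lengths) in the annotated transcripts of Clec2d, 8.24% also occurred in transcripts of another gene, led by Clec2i with 4.25%. The share was 8.67% for Clec2i, led by Clec2g, 9.81% for Clec2g, 19.5% for Klrb1c, led by the gene model Gm44511 (12.8%) and by Klrb1a (6.19%), and 5.78% for Klri2. On its own strand Klrb1c also shares 413 of 2961 exon bases with Gm44511, which had 0 reads. No such window was found for Klrb1f, Klrd1 or Klrk1. The tables list 0 reads with several alignments, and reads were aligned to a C57BL/6J genome, so a strain difference in RNA and a difference in how NOD reads align or are shared among copies cannot be told apart here.

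The complex as a whole was surveyed from Klrb1a to Klra2, an interval of chromosome 6 with 43 lectin genes and pseudogenes and 78 other annotated genes. Of the 43 lectin genes, 36 had a read and 8 could be tested, and Clec2d and Clec2i were the 2 that passed. In 5 of the 8 every library of one strain lay above all those of the other, against 17.0% of all tested genes. Of these 5, Klrb1a and Klrb1c, like Klrk1 among the other 3, were tested only through their NOD counts and had to lean upward, so neither this count nor a median of the 8 describes the lectins as a group. C57BL/6J had 0 reads of 21 of the 43 genes and NOD of 9, with NOD the more deeply sequenced.

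Cd69, an early activation antigen that thymocytes switch on when their receptor is engaged, was the most abundant lectin of the interval outside the 8. C57BL/6J libraries stood at 38.6, 40.3, 40.7 and 47.9 CPM and NOD libraries at 88.3, 114, 57.9 and 61.7 CPM, again without overlap. The log2 fold change of 0.97 ± 0.25 missed the threshold (adjusted p = 0.0801), and NOD sample 1 stood at 101 CPM against 59.7 CPM in NOD sample 2. Without NOD sample 2 the adjusted p was 6.74e-07 and without NOD sample 1 it was 0.253; DESeq2 gave 0.0206. Clec7a, the fungal sensor dectin-1 of myeloid cells, stood at 1.15 and 1.38 CPM (adjusted p = 0.896), and Clec12a, a myeloid inhibitory lectin, at 0.633 and 0.595 CPM (adjusted p = 0.972).

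Klrb1a, singled out after its values were seen, had 0 reads in all C57BL/6J libraries and 7, 9, 11 and 7 reads in the NOD libraries. Taking 3 counts as the limit over the C57BL/6J libraries, and the NOD reads as exact, Klrb1a was at least 5.29-fold higher in NOD. With counting error in both strains, the lower end of the 95% interval of the ratio was 4.07. The adjusted p of Klrb1a was 0.0650. The 6 genes of the Klrb1 family summed to 0.440 to 0.798 CPM in C57BL/6J libraries and 1.51 to 2.08 CPM in NOD libraries. Of their 190 NOD reads, 113 were of Klrb1c and 34 of Klrb1a. Klrb1f, with 19 of the 30 C57BL/6J reads, leaned the other way (depth-scaled ratio 0.639). The sum thus restates a few genes and does not describe the family. The 14 Klra genes, which encode the Ly49 receptors of NK cells, had 8 reads in C57BL/6J and 136 in NOD, and none reached the filter. In CPM they summed to 0 to 0.342 over the C57BL/6J libraries and 0.485 to 2.015 over the NOD ones. The strains did not overlap in either sum, and no share over all genes was computed for such sums.

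**Figure D2:**
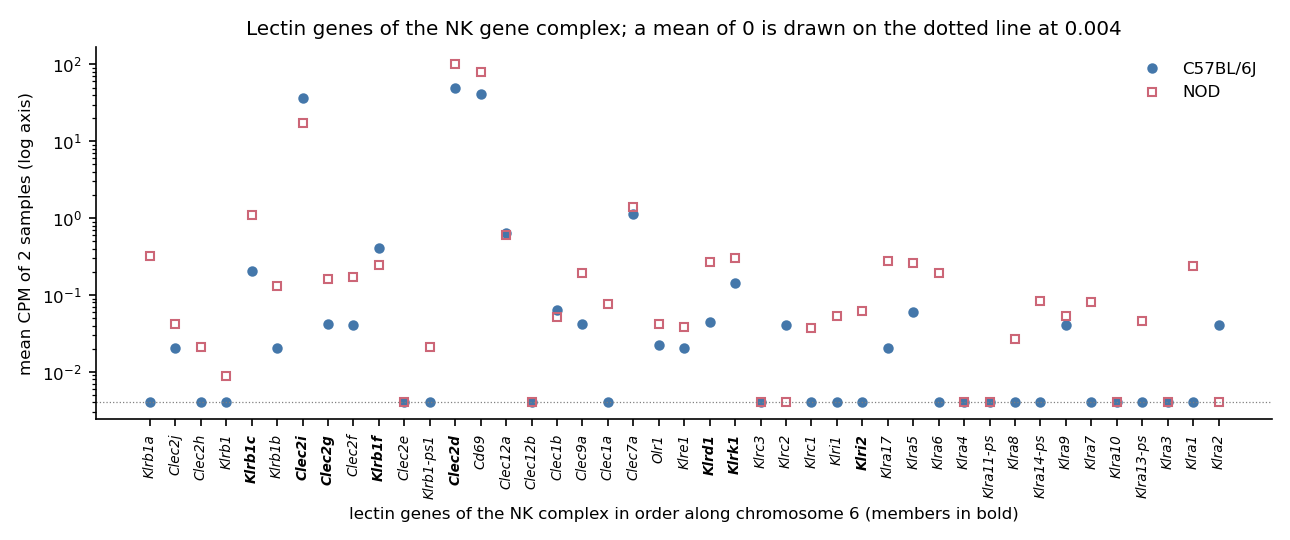
Mean level of 2 summed samples in CPM (logarithmic vertical axis) for the 43 lectin genes of the NK complex in their order along chromosome 6, with C57BL/6J as filled circles, NOD as open squares and means of 0 placed on the dotted line at the bottom. Clec2i, Clec2d and Cd69 stood above 10 CPM in both strains, and nearly all Klra and Klr receptor genes lay below 1 CPM.

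Of the 78 other genes of the interval, 9 were tested and 1 passed, the long noncoding RNA 2310001H17Rik (ENSMUSG00000097354, minus strand, 129208412 to 129238725). It lies between Clec2d and Cd69, its start 58.1 kb from that of Clec2d and 36.7 kb from that of Cd69. Its level was 5.52, 4.77, 8.30 and 6.73 CPM in C57BL/6J and 61.7, 64.5, 59.1 and 42.1 CPM in NOD. It rose from 6.43 ± 1.85 to 57.3 ± 8.65 CPM, a log2 fold change of 3.15 ± 0.26 (adjusted p = 0.000217), and it passed in all 14 alternative fits. BC035044, a protein-coding gene on the opposite strand whose start lies 3.5 kb inside Clec2i, stood at 21.9 ± 1.87 and 41.3 ± 8.69 CPM (0.92 ± 0.21, adjusted p = 0.0536). It shares 0 exon bases with Clec2i, and the strand setting of the counting is not given in the sources used here.

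**Figure D3:**
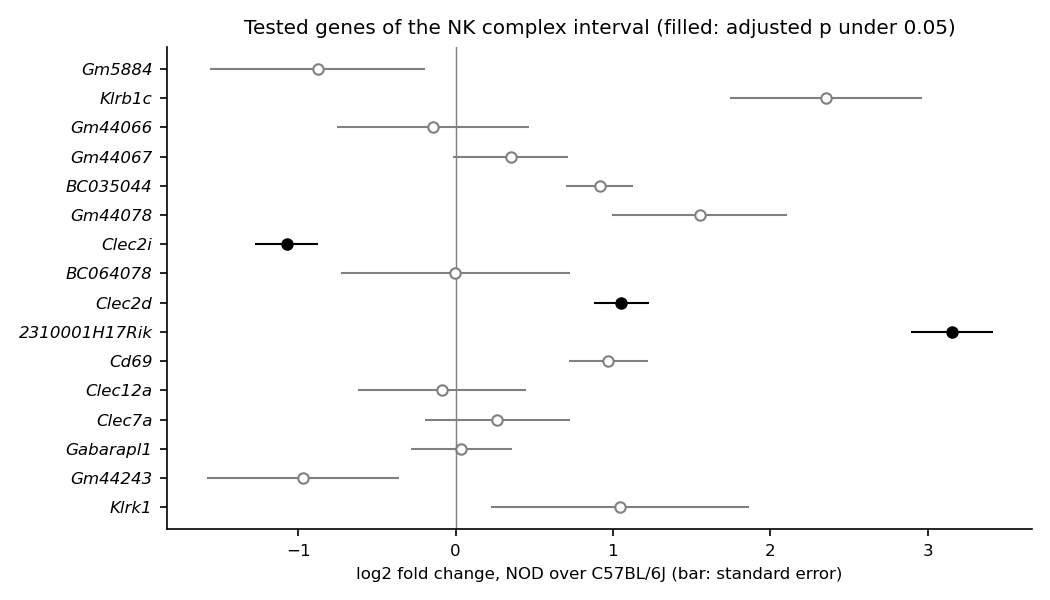
Log2 fold change of NOD over C57BL/6J (horizontal axis, bars are SE) for the tested genes of the interval with reads in both strains, ordered along chromosome 6 from top to bottom; filled symbols passed an adjusted p of 0.05. Clec2i lay at -1.07, Clec2d at 1.05 and 2310001H17Rik at 3.15, and the other genes did not pass.

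Partners of the receptors were compared from lists of their adaptors and ligands, of which H60b was the 1 gene that passed the test. Of 12 adaptor and signalling genes, all tested, 0 were called (smallest adjusted p 0.135; Syk, 61.2 and 40.2 CPM). Lck, the kinase of the T cell receptor, stood at 985 and 1167 CPM, Cd247, the zeta chain, at 536 and 441 CPM, and Vav1, an exchange factor, at 325 and 290 CPM. Hcst, the NKG2D adaptor DAP10, stood at 4.43 ± 2.48 and 3.19 ± 0.479 CPM (adjusted p = 0.791). Of 7 ligand genes of Klr receptors, 4 were tested and 1 passed, while 3.68% of all tested genes were called. H60b, a ligand of NKG2D, had 0, 0, 4 and 0 reads in C57BL/6J and 245 in all in NOD, where its level was 3.44, 2.44, 1.82 and 1.81 CPM (log2 fold change 4.78 ± 0.83, adjusted p = 0.0142). H60b passed the filter on low counts through its NOD counts alone, so it had to lean upward. Its fold rests on the 4 reads of 1 C57BL/6J library. Leaving out C57BL/6J sample 1 gave 3.85 (adjusted p = 0.0738), leaving out C57BL/6J sample 2, which holds those reads, gave 9.66 (adjusted p = 0.0134), and T number 2 libraries alone gave 8.19 (adjusted p = 0.0182). With 0 C57BL/6J reads, the last 2 values are set by the prior count of the fit and are no measure of size. Of its 1213 exon bases, 133 are shared with Raet1e. H2-T23, which encodes Qa-1, stood at 54.0 ± 11.4 and 31.7 ± 1.97 CPM (-0.77 ± 0.20, adjusted p = 0.0848), and Ulbp1, which encodes the NKG2D ligand MULT1, at 45.0 ± 12.0 and 29.7 ± 18.0 CPM (adjusted p = 0.745). The median log2 fold change of the 16 tested partners was -0.155.

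Markers of cells that carry these lectins were measured beside them. Of 20 NK and innate-like lymphocyte markers, 13 were tested and 0 passed (smallest adjusted p 0.185), and none was at 0 in either strain. The NK list summed to 137 to 171 CPM over the C57BL/6J libraries and 162 to 214 CPM over the NOD ones, mostly from Txk, which T cells also express, at 129 and 146 CPM. Of the 13 tested markers 11 had a positive log2 fold change, with a median of 0.38. Among all 17291 tested genes 9043 did, with a median of 0.020. Cd244a and Fasl passed the filter on low counts through their NOD counts and had to lean upward. Neither this count nor the median therefore describes the list as a group. Ccl5, a chemokine, stood at 1.14 ± 0.697 and 2.58 ± 0.214 CPM (adjusted p = 0.362). Il2rb, a chain of the interleukin-2 and interleukin-15 receptors, stood at 2.02 ± 0.176 and 3.22 ± 0.799 CPM (adjusted p = 0.589). For both, every NOD library lay above every C57BL/6J library, as for 8.20% of all tested genes. Cd244a, a receptor of NK cells, stood at 0.144 ± 0.141 and 0.728 ± 0.142 CPM (adjusted p = 0.185). The 2 tested markers with a negative log2 fold change were Fcer1g (0.775 and 0.528 CPM, adjusted p = 0.790) and Cd160 (0.776 and 0.674 CPM, adjusted p = 0.934). The granule genes Gzma (17.9 and 20.9 CPM) and Prf1 (4.91 and 6.39 CPM) were detected in both strains. The NK receptor gene Ncr1 had only 5 and 12 reads, and Eomes, a transcription factor of NK cells, 5 and 16. Their depth-scaled NOD to C57BL/6J ratios were 1.12 and 1.49, both with counting intervals that include 1. Among the other untested markers, Il18rap had 7 and 44 reads (ratio 2.94, interval 1.31 to 7.72). Xcl1 had 5 and 32 (ratio 2.99, interval 1.16 to 9.82). For both, the libraries of the strains overlapped. Gzmb (ratio 2.26), Itga2 (1.07) and S1pr5 (0.934) had intervals that include 1. Of 12 myeloid and dendritic markers, 11 were tested and 1 passed, while 3.68% of all tested genes were called. The marker that passed was Csf1r, the macrophage growth factor receptor. Its mean was 0.642 ± 0.278 CPM for C57BL/6J and 3.55 ± 0.364 CPM for NOD (adjusted p = 0.0233). Of the 11, 10 had a positive log2 fold change and 1, Itgam (1.82 and 1.35 CPM), a negative one. Among those that did not pass, Lyz2 stood at 3.85 and 9.54 CPM (adjusted p = 0.109) and Siglech at 0.970 and 2.06 CPM (adjusted p = 0.345). Itgax stood at 0.289 and 0.584 CPM and Flt3 at 0.502 and 0.788 CPM. C1qa stood at 1.54 and 1.73 CPM, C1qb at 1.70 and 1.73 CPM and Adgre1 at 0.342 and 0.469 CPM. The myeloid list summed to 44.0 to 61.1 CPM in the C57BL/6J libraries and 70.8 to 89.6 CPM in the NOD ones. These ranges did not overlap, but no share over all genes was computed for such a sum. Most of that sum came from Cst3 (32.5 and 38.2 CPM) and Cd74 (10.35 and 18.7 CPM), neither of which passed. Of 9 mature thymocyte markers 1 rose, Cd44 (adjusted p = 0.0474), and the list summed to 197 to 213 and 180 to 205 CPM. Of the 7 B cell, 6 thymic epithelial and 6 gamma-delta T cell markers, 7, 4 and 6 were tested, and none passed. The part of other cells in the reads of the scarce Klr genes was not tested, and in bulk RNA fewer cells of a type and less RNA per cell cannot be told apart.

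**Figure D4:**
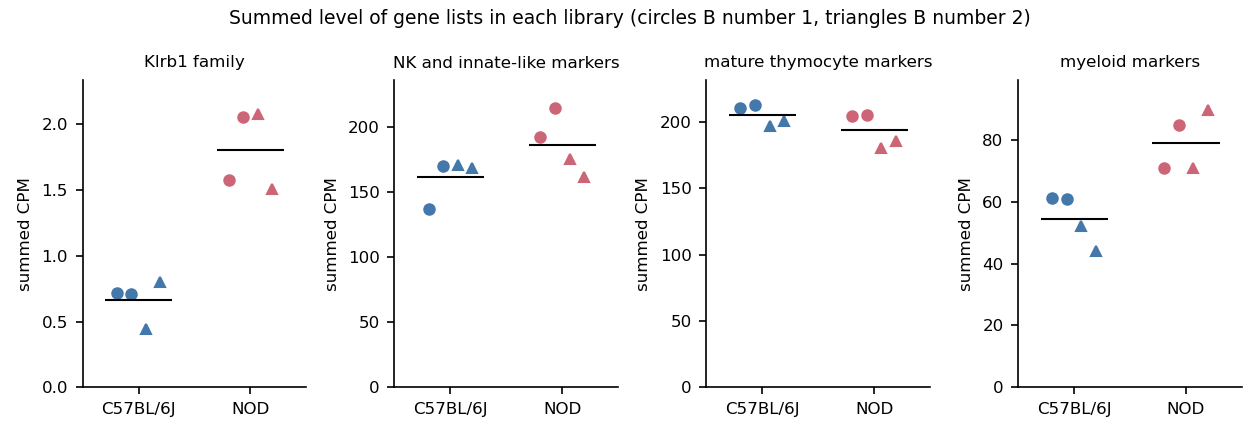
Summed CPM (vertical axes, starting at 0) of the Klrb1 family and of 3 marker lists in each C57BL/6J (blue) and NOD (red) library; circles are B number 1, triangles B number 2, and the line is the mean of 4 libraries. The sums of the Klrb1 family, in NOD mostly reads of Klrb1c and Klrb1a, and of the myeloid markers did not overlap between the strains. Those of the NK and mature thymocyte markers did. No share over all genes was computed for such sums.

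The genes that correlated most with Clec2d and Clec2i were found by Pearson correlation of log2(CPM + 1) over the 8 libraries, among 7893 protein-coding genes outside the interval. For Clec2d these were Zcchc9 (0.992), Socs5 (0.983) and Tnfrsf14 (0.982), and for Clec2i Parp11 (0.994), Apobec3 (0.992) and Eps8l1 (0.989). Socs5, a suppressor of cytokine signalling, went from 7.83 to 19.9 CPM (adjusted p = 0.0189), and Apobec3, an antiviral cytidine deaminase, from 56.5 to 29.0 CPM (adjusted p = 0.0195). Zcchc9 did not pass the test (35.6 and 46.9 CPM, adjusted p = 0.384). A correlation takes no account of the size of a change: Eps8l1 went from 29.45 to 0.0716 CPM, far more than Clec2i. Parp11 also lies on chromosome 6, outside the interval. All 8 libraries carry the strain difference itself, so these values describe a shared order of libraries and no more.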

How the data were processed

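The authors deposited 1 table of raw read counts per Ensembl gene for each of the 8 libraries. Per the submitters' processing notes the build was GRCm38 and the tools STAR 2.5.0a and HTSeq 0.6.1; the annotation release and strand setting are not given in the sources used here. Per the labels' protocols, libraries were stranded total RNA from a small input, sequenced as short read pairs. Symbols, coordinates and exon lengths came from GENCODE M21, which held 53360 of the 53465 identifiers; the counters for unassigned reads, 41.14% to 61.46% of the listed reads per library, were left out.

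Libraries were summed by strain and B number. Libraries that shared a B number differed beyond sampling noise (chi-square per degree of freedom 2.80 to 58.4), so none was a copy of another. Genes kept by filterByExpr were scaled by TMM. Strains were compared in edgeR 4.0.16 under R 4.3.3 with its quasi-likelihood test (strain only, 2 residual degrees of freedom, two-sided, Benjamini-Hochberg over all tested genes). In simulated counts for 16826 genes, 50 genes with a mean above 1 CPM were changed by each fold, and scarcer genes were not. This comparison called 18.0% of the 50 genes changed 2-fold and 90.0% of the 50 changed 4-fold. The genes, lists and tests were chosen with earlier results of these data known. The genes named are the 8 lectins, every called gene of the interval and of the partner lists, the 3 most abundant others of the lectin and partner lists, and the 3 genes most correlated with each lectin of 10 CPM or more; marker genes come from their lists, and Klrb1a, BC035044, Syk, Hcst, H2-T23 and Ulbp1 were added after their values were seen. Raet1a, Raet1b and Raet1c were not matched by symbol. Alternatives were other scalings and filters, DESeq2 1.42.0, 8 separate libraries, 1 T number only, a block on B number and leaving out each sample.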

Additional observations from a re-analysis of the deposited data

Results flagged for a closer look

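Single libraries stood apart from the other 3 of their strain for 3 genes, by the gap to the nearest library relative to the whole range, among 18 groups of 4 libraries examined; chance alone would flag about 1 group in 20. Clec2i was at 18.4 CPM in the NOD library with B number 2 and T number 1, against 16.7 CPM in each of the other 3, a gap that is small beside the strain difference. H60b was at 0.252 CPM in the C57BL/6J library with B number 2 and T number 1, from 4 reads, and at 0 in the other 3. Clec12a was at 0.982 CPM in the NOD library with B number 2 and T number 2, against 0.429 to 0.515 CPM in the others.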

How the results depend on the processing

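Clec2d stayed higher and Clec2i lower in NOD in all 14 alternative fits, with log2 fold changes of 0.87 to 1.25 and -1.18 to -0.98, and both lost the call when either C57BL/6J sample was left out (adjusted p up to 0.121 and 0.154). The number of called genes, 637, was 1188 with no filter on low counts, 1535 with the 8 libraries as separate samples, 342 with T number 2 libraries only and 256 to 1389 when 1 sample was left out. Called genes among the 8 lectins, 2, were 0 to 2 when 1 sample was left out. Called lectin genes of the complex, 2, were 5 with no filter, 4 with separate libraries and 0 to 3 without 1 sample. Called other genes of the interval, 1, were 2 with no filter, 2 with DESeq2, 3 with separate libraries and 1 to 2 without 1 sample. Called partner genes, 1, were 3 with no filter, 3 with separate libraries and 0 to 4 without 1 sample. Clec12a changed sign, to 0.66 with T number 2 libraries only and when 1 sample was left out ran from -0.337 to 0.118 (the latter without NOD sample 1), and Clec7a to -0.32 with T number 1 libraries only, none past the threshold. The cause was not tested. With B number as a block, 513 genes and the same 2 lectins were called, Clec2d at an adjusted p of 0.0248 and Clec2i at 0.0449. The B numbers share only a number in the labels, and the deviations of same-numbered samples correlated at -0.123 over 17291 genes; crossing the pairing, chosen after seeing the data, gave 768 called genes, 2, 3, 2 and 2 among the lectins, the complex, its other genes and the partners. Depth limits the 6 scarce genes, where 10 or fewer C57BL/6J reads lay behind all but Klrb1f.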
